A study of Saccharomyces cerevisiae with 12 samples.

Results

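The first 30 min of exit from quiescence were described in budding yeast (Saccharomyces cerevisiae, strain pJD47) from 3 libraries of cells 30 min after exit began and 3 libraries of quiescent cells. All genes with a mean of at least 10 normalised counts over the 12 libraries of the study were taken, which was 5871 of the 6120 genes measured. Of the other 249 genes, 124 were at 0 in every library. The exit cells had been pelleted, washed free of acetate, resuspended in liquid medium and collected 30 min later. The quiescent cells had been moved from glucose medium into water with 10 mM D3-acetate, an isotope-labelled acetate, for 7 days. The exit cells had the same 7 days behind them, so both groups share the strain, the starvation and the labelled acetate. New medium, loss of acetate and handling came together and cannot be told apart. Libraries from 240 min of exit and from logarithmic growth entered the estimate of spread, and they are otherwise used for the time point at which called genes had their highest or lowest mean and for a few levels. The labels call the 3 libraries of a group biological replicates but do not say whether they came from separate cultures. The p-values thus measure the spread between libraries of a group, pooled over the 4 groups, which may be technical in part. One strain was used and RNA was taken from the whole culture, so fewer cells of a kind and less RNA per cell cannot be told apart.

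As background, a quiescent yeast cell has stopped dividing, makes few ribosomes and lives on stored or non-fermentable carbon under a programme driven in large part by the stress factors Msn2 and Msn4. Nutrients act through the Ras and protein kinase A pathway and through the TOR kinases, which restrain that programme and turn on the genes that assemble ribosomes. The assembly genes often carry the promoter elements PAC and RRPE, bound by the repressors Dot6 and Tod6 and by Stb3. The heat shock factor Hsf1 drives chaperone genes when unfolded proteins accumulate, and newly made ribosomal proteins that find no ribosome are a known source of such a load.

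Values are the deposited normalised read counts, and the 3 values of a group are given in the order of replicates 1, 2 and 3. Calls required an adjusted p below 0.05 in limma's moderated test on log2(value + 1) with Benjamini-Hochberg adjustment over all 5871 genes. A change is the log2 ratio of exit over quiescent cells with its SE (n = 3 libraries each). That SE and the p-value use a spread pooled over all 4 groups. The median SD of log2 values was 0.208 at 30 min, 0.247 in quiescent cells, 0.234 at 240 min and 0.416 in log phase. An SE can thus exceed the scatter of the exit and quiescent libraries. Recovered reads numbered 7943459 to 11866340 in exit libraries, against 1195233 to 5220494 in quiescent libraries. Quiescent replicate 1 was the shallowest, and 1 read there was worth 6.97 units, so low quiescent values are the least precise. Replicate 1 also stood apart from replicates 2 and 3 in both groups.

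Of the 5871 genes, 1211 were called higher (20.6%) and 1394 lower (23.7%) at 30 min. A change of at least 2-fold was found for 806 of the called genes upward (13.7%) and 916 downward (15.6%). Among all genes tested, 1718 had every exit library above every quiescent library (29.3%) and 1963 had every exit library below (33.4%). The direction held in all 3 numbered pairs of libraries for 1207 of the genes called higher and 1393 of those called lower. These counts follow in large part from the calls, which came from the same libraries, and are a description. The changes were large for few genes: 193 rose and 159 fell at least 4-fold, and 22 rose and 2 fell at least 8-fold. The deposited values are scaled so that the typical gene shows little change. Under every scaling used, a rise or fall is relative to the other genes, and a shift in total RNA per cell was not measured. The median log2 change of all genes was -0.07. With total-count scaling that median moved up by 0.253 and the split became 1669 higher and 976 lower. Leaving out each of the 6 libraries in turn removed 770 of the 2605 calls in at least 1 fit. In the lists described here, counts that moved by over 1.5 times with a library left out, with total-count scaling or with the replicate number as a block are given beside the main count.

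**Figure D1:**
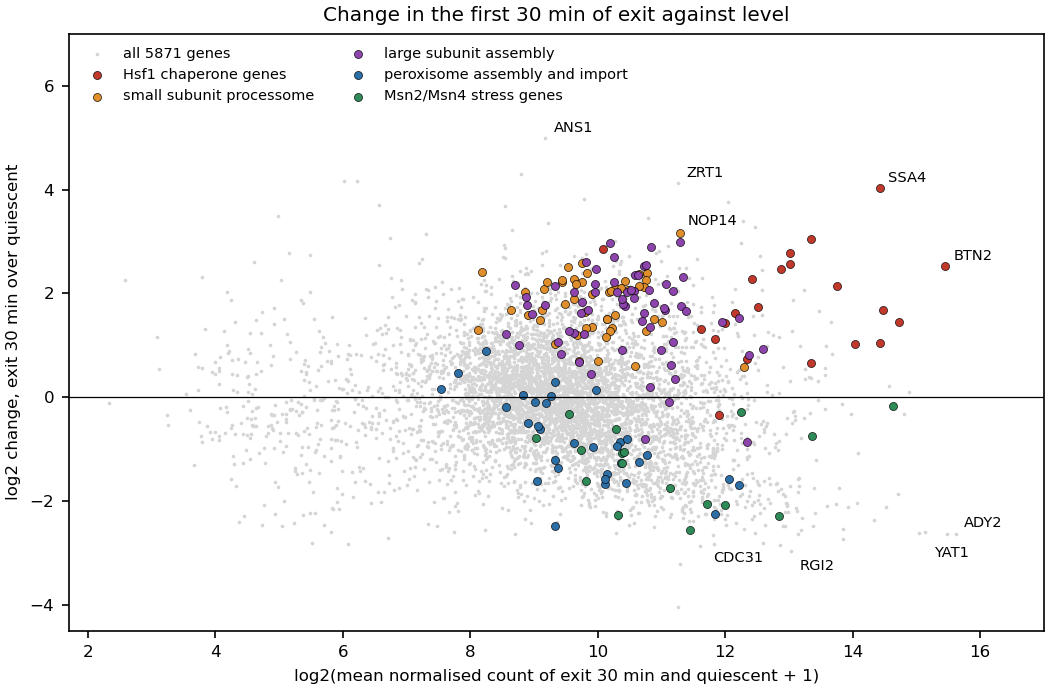
Each point is 1 of 5871 genes, with the log2 of its mean normalised count over the exit 30 min and quiescent libraries on the x axis and its log2 change, exit 30 min over quiescent, on the y axis. The 21 Hsf1 chaperone genes and the 2 ribosome assembly lists lie mostly above 0, with SSA4 at 4.02, and the peroxisome and Msn2/Msn4 lists lie mostly below it.

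The called genes took up a large part of the RNA. Genes called higher held 30.8, 29.4 and 29.9% of the summed normalised counts of the exit libraries, against 8.36, 9.74 and 8.91% in the quiescent libraries. The genes called lower held 19.4 ± 1.39% at 30 min and 46.6 ± 3.13% in quiescent cells (SD, n = 3 each). These shares follow from the calls and are a description. The 100 highest genes of each library held 18.7 ± 0.683% at 30 min and 21.3 ± 0.875% in quiescent cells, with no overlap between the groups (exact permutation test, two-sided, p = 0.1, the smallest that 3 against 3 libraries allow). Cytosolic ribosomal protein genes were still at 6.14 ± 0.329% at 30 min, against 5.18 ± 0.720% in quiescent cells (exact permutation p = 0.1). They reached 17.3 to 21.2% at 240 min, while the genes for assembling ribosomes had changed by 30 min.

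BTN2, whose product sorts misfolded proteins into deposits (YGR142W, chrVII:772454-773686, + strand), took 1.06, 1.36 and 1.02% of the summed values at 30 min, against 0.137, 0.186 and 0.179% in quiescent cells. Per kilobase of coding sequence it ranked 4, 3 and 4 among protein-coding genes in exit libraries, against 147, 104 and 111 in quiescent libraries. SSA4, a heat-inducible Hsp70, ranked 30, 16 and 19 per kilobase in exit libraries, against 2117, 1129 and 1075 in quiescent libraries. ADY2, the acetate permease, ranked 72, 21 and 29 in exit libraries by the same measure, against 3, 3 and 3 in quiescent libraries. YAT1, a carnitine acetyltransferase, ranked 278, 143 and 167 in exit libraries, against 8, 16 and 12 in quiescent libraries.

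**Figure D2:**
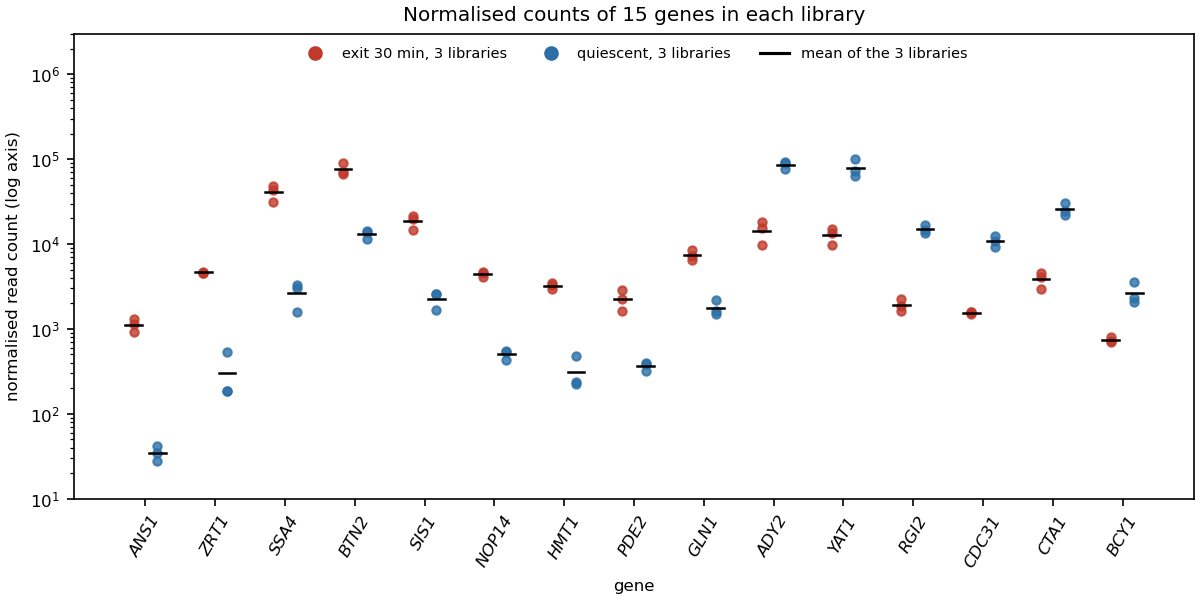
Normalised read counts (log axis) of 15 genes, with each point 1 library, exit 30 min left of quiescent for each gene, and a bar at the mean of 3 libraries. All 15 were drawn from genes chosen in part for having no overlap between the groups. ANS1 to GLN1 are higher at 30 min, with BTN2 at 67252 to 90366, and ADY2 to BCY1 are lower. Of all genes tested, 29.3% had every exit library above every quiescent library and 33.4% had every exit library below.

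Promoters of called genes are shown here so that the short elements counted in the next paragraphs can be seen in place. Each is the reference sequence of build R64 (sacCer3) from 250 bases before to 50 bases after the start of the coding sequence, written on the coding strand. Capitals mark matches on either strand to any of 9 motifs. PAC was searched as GATGAG and is the element that Dot6 and Tod6 bind, and RRPE was searched as AAAATTTT. The heat shock element HSE was searched as GAANNTTCNNGAA and the zinc element ZRE as ACCNNNAAGGT. The stress element STRE was searched as AGGGG and is the site of Msn2 and Msn4. The carbon source element CSRE was searched as CCNNNNNNCCG. GATA was searched as GATAAG and is the element of nitrogen regulation, while the Gcn4 site GCN4 of amino acid starvation was searched as TGACTC. The cell cycle element MCB was searched as ACGCGT. A base may lie in more than 1 motif. ZPR1, HMT1, JJJ3 and ZRT1 were the called genes with the largest change that held HSE, PAC with RRPE, CSRE and ZRE. NOP14, FES1, YAT1 and TFS1 were added after their values had been seen, as a processome gene, a chaperone gene, an acetate gene and a stress gene.
ZPR1 (chrVII:914991-915290, + strand): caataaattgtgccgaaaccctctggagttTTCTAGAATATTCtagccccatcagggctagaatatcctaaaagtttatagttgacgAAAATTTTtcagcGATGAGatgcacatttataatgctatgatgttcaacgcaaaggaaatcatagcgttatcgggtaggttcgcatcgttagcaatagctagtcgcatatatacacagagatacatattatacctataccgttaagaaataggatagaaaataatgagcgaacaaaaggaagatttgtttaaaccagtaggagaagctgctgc
HMT1 (chrII:305927-306226, - strand): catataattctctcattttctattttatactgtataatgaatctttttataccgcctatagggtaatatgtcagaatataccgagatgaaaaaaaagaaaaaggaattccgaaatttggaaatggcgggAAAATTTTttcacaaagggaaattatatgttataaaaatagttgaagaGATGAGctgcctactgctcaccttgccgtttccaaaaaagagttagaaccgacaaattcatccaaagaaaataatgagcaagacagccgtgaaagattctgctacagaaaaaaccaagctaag
JJJ3 (chrX:612163-612462, + strand): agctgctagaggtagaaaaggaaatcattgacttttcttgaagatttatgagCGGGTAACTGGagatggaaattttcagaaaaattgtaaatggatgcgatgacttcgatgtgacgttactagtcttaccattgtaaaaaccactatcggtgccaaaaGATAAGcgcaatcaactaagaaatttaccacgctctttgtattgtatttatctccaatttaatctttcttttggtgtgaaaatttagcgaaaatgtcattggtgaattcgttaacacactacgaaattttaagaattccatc
ZRT1 (chrVII:20728-21027, + strand): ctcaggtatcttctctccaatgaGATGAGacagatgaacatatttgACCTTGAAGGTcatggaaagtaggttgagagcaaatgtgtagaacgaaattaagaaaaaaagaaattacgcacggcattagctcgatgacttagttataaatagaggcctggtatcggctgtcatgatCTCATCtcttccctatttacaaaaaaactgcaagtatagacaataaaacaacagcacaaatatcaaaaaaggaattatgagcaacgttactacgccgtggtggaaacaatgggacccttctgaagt
NOP14 (chrIV:190537-190836, - strand): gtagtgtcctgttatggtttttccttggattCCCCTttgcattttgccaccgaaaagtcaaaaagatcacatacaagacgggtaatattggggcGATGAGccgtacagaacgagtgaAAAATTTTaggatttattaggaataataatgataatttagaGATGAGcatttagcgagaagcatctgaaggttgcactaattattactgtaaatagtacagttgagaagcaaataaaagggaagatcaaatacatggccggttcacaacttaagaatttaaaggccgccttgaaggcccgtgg
FES1 (chrII:444644-444943, - strand): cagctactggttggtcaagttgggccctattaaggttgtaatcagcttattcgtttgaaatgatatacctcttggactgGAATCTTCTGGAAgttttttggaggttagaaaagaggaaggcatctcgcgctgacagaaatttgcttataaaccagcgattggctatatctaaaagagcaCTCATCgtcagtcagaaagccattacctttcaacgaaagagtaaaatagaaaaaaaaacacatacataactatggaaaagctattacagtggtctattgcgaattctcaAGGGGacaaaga
YAT1 (chrI:189943-190242, + strand): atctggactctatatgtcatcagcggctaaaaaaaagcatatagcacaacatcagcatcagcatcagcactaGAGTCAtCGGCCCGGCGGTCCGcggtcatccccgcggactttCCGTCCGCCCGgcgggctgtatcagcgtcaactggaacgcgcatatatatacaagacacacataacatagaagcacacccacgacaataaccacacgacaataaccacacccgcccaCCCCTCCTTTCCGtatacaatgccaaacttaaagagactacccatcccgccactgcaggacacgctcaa
TFS1 (chrXII:513772-514071, - strand): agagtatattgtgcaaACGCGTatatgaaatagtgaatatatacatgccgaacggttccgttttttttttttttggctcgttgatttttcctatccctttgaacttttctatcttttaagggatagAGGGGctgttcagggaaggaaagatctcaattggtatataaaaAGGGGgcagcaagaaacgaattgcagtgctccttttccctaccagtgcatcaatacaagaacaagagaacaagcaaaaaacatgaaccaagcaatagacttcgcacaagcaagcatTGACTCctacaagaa

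ZPR1 held an HSE, an RRPE and a PAC at -220 to -208, -163 to -156 and -150 to -145 from the coding start. Its product helps to fold the elongation factor eEF1A, and it had 12450.5, 7169.9 and 7589 in exit libraries, against 1109, 722 and 739 in quiescent libraries (log2 change 3.39 ± 0.34, adjusted p = 2.66e-05). HMT1, the arginine methyltransferase of nuclear RNA-binding proteins, held an RRPE at -121 and a PAC at -73, and had 2969.9, 3267 and 3481 in exit libraries, against 481, 239 and 221 in quiescent libraries (log2 change 3.45 ± 0.32, adjusted p = 2.07e-05). NOP14 held 2 PAC elements on either side of an RRPE. YAT1 held 4 CSRE matches, 2 of which overlap each other, and an STRE that overlaps 1 of them. TFS1 held 2 STREs at -124 and -81, and a GCN4 match that lies inside the coding sequence. A match is a run of letters and not a measured binding site.

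Over all 5762 nuclear protein-coding promoters tested, PAC was present in 19.8% and RRPE in 9.23%. Among genes called higher the shares were 32.5% for PAC and 21.6% for RRPE, against 15.7% and 4.01% among genes called lower, and 16.7% and 6.79% among genes not called. PAC and RRPE together were found in 259 promoters, of which 66.0% belonged to genes called higher and 4.25% to genes called lower, with a median log2 change of 1.31. STRE went the other way, with 11.2% among genes called higher, 34.1% among genes called lower and 20.8% among genes not called. HSE was in 46 promoters in all, of which 43.5% were called higher and 13.0% lower. Its shares were 1.66% among genes called higher, 0.445% among genes called lower and 0.623% among genes not called. CSRE was in 7.97% of the promoters of genes called higher, 12.7% of those called lower and 10.1% of those not called. GATA was in 13.0% of the promoters of genes called higher, 16.9% of those called lower and 14.1% of those not called. For GCN4 these shares were 7.64%, 11.1% and 7.17%, and for MCB 3.99%, 2.08% and 3.30%. ZRE and AFT (TGCACCC, the iron element) were rare, in 0.607% and 1.28% of all promoters.

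**Figure D3:**
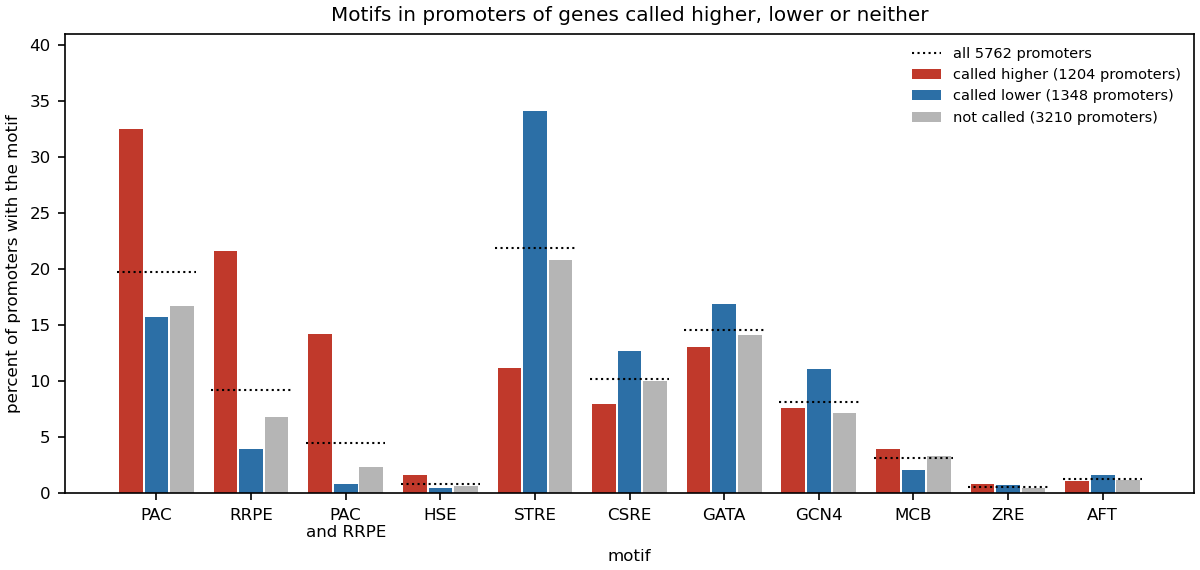
Percent of promoters that hold each motif on either strand, for genes called higher (1204 promoters, left bar), called lower (1348, middle) and not called (3210, right), with a dotted line at the share of all 5762. PAC and RRPE are most frequent among genes called higher (32.5% and 21.6%), and STRE among genes called lower (34.1%).

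Genes of the Hsf1 chaperone list, which includes mitochondrial chaperones, were among the genes that rose most. Of 21 Hsf1 chaperone genes 17 were called higher and none lower, with a median log2 change of 1.69 against -0.07 for all genes. For the Hsf1 list, 11 to 14 were called higher with 1 library left out, moving by over 1.5 times without exit replicate 2 or 3. The list held 6.06, 6.15 and 5.46% of the summed values in exit libraries, against 1.26, 1.58 and 1.38% in quiescent libraries (exact permutation p = 0.1). SSA4 (YER103W, chrV:364589-366517, + strand) had 31607, 48884 and 43370.5 in exit libraries, against 1569, 3033 and 3282 in quiescent libraries (log2 change 4.02 ± 0.89, adjusted p = 0.00322). SIS1, the J-protein that feeds clients to Hsp70 and restrains Hsf1 (YNL007C, chrXIV:618507-619565, - strand), had 14662, 21343 and 19561 in exit libraries, against 1653, 2592 and 2559 in quiescent libraries (log2 change 3.04 ± 0.53, adjusted p = 7.74e-04). FES1, a nucleotide exchange factor of Hsp70, had 11759, 17408 and 14023 in exit libraries, against 1492, 2492 and 2441 in quiescent libraries (log2 change 2.77 ± 0.38, adjusted p = 1.71e-04). CUR1, a sorting factor related to BTN2, had 2246, 1945 and 1511 in exit libraries, against 160.4, 305 and 349 in quiescent libraries (log2 change 2.86 ± 0.30, adjusted p = 3.54e-05). BTN2 itself had 70999, 90366 and 67252 in exit libraries, against 11409, 14157 and 14026 in quiescent libraries (log2 change 2.52 ± 0.55, adjusted p = 0.00288). In each of these 5 genes the lowest exit library was more than 4 times the highest quiescent library. They were chosen in part for having no overlap between groups and a large change in log2 or in count. The constitutive Hsp90 gene HSC82 had 36022, 28903 and 24217 in exit libraries, against 11674, 17314 and 14244 in quiescent libraries (log2 change 1.04 ± 0.28, adjusted p = 0.00963), a smaller change on a high starting value. For 13 of the 17 called genes the mean at 30 min was the highest of the 4 time points, against 44.4% of all genes called higher. Of the 21 promoters 7 held an HSE (33.3%), against 0.798% of all promoters, and 8 held an STRE (38.1%), against 21.9% of all promoters.

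Other chaperones act on new proteins. Of 21 genes for ribosome-bound chaperones, prefoldin and the chaperonin CCT, 10 were called higher and none lower, with a median of 0.82. For this list, 5 to 8 were called higher with 1 library left out, moving by over 1.5 times without exit replicate 1 or 3 or quiescent replicate 2 or 3. YKE2, a prefoldin subunit, had 875, 698 and 723 in exit libraries, against 216, 268 and 240.0 in quiescent libraries (log2 change 1.66 ± 0.18, adjusted p = 4.29e-05). Among the chaperonin genes, CCT5 had 2468, 3017 and 3156 in exit libraries, against 1095, 1356 and 1350.0 in quiescent libraries (log2 change 1.18 ± 0.34, adjusted p = 0.0145), and TCP1 and CCT7 had log2 changes of 1.02 and 0.95. None of the 10 was at its highest at 30 min: 7 were highest at 240 min and 3 in log phase. In the endoplasmic reticulum, 8 of 21 folding and translocation genes were called higher (38.1%) and 1 lower (4.76%), with a median of 0.30. The shares of all genes were 20.6% and 23.7%. ERO1, the oxidase that drives disulfide formation (YML130C, chrXIII:11483-13174, - strand), had 5182, 4318 and 3703 in exit libraries, against 635, 414 and 444 in quiescent libraries (log2 change 3.15 ± 0.21, adjusted p = 6.10e-06). KAR2, the Hsp70 of that compartment, had 15323, 12876 and 12418 in exit libraries, against 3536, 3654 and 3851 in quiescent libraries (log2 change 1.87 ± 0.37, adjusted p = 0.00161). Its partners SIL1, an exchange factor, and SCJ1, a J-protein, had changes of 1.49 and 1.25. For the endoplasmic reticulum list, 0 to 1 were called lower with 1 library left out, moving by over 1.5 times without exit replicate 2 or 3. Total-count scaling gave 0 lower, and the replicate block gave 3 lower.

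Most genes for the assembly of both ribosomal subunits were called higher. Of 50 genes of the small subunit processome, which cuts and folds the precursor of the small ribosomal RNA, 46 were called higher and none lower, with a median of 1.94 and a lowest value of 0.57. Of 65 genes for large subunit assembly, 53 were called higher and 2 lower, with a median of 1.76. For the large subunit list, 1 to 2 were called lower with 1 library left out, moving by over 1.5 times without exit replicate 2 or 3 or quiescent replicate 1 or 2. Total-count scaling gave 0 lower. The processome list held 1.30% of the summed values at 30 min and 0.347% in quiescent cells, and the large subunit list 2.36% at 30 min and 0.788% in quiescent cells. NOP14 (YDL148C, chrIV:188154-190586, - strand) had 4109, 4613 and 4739 in exit libraries, against 537, 549.6 and 429 in quiescent libraries (log2 change 3.15 ± 0.21, adjusted p = 6.10e-06). LCP5 had 1471, 1547 and 1379 in exit libraries, against 146, 348 and 286 in quiescent libraries (log2 change 2.58 ± 0.35, adjusted p = 1.58e-04). RRP9, the processome protein bound to the U3 RNA, and IMP3, which joins U3 to the precursor, had changes of 2.5 and 2.40. SPB1, a methyltransferase of the large subunit, had 3664, 4701 and 4940.1 in exit libraries, against 488, 647 and 533 in quiescent libraries (log2 change 2.99 ± 0.25, adjusted p = 1.10e-05). CIC1 had 1854, 2050.1 and 2344 in exit libraries, against 293, 267 and 237 in quiescent libraries (log2 change 2.97 ± 0.21, adjusted p = 8.42e-06). MAK16 and PUF6 had changes of 2.90 and 2.70. These 8 genes were chosen in part for having no overlap between groups, with every exit library above every quiescent library. PAC was in 44 of the 50 processome promoters (88.0%) and in 58 of the 65 large subunit promoters (89.2%), and each of the 65 held PAC, RRPE or both.

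Escort proteins, which guard single ribosomal proteins on the way to the nucleolus, were called higher in 8 of 8 cases, with a median of 1.84. YAR1, the escort of Rps3 (YPL239W, chrXVI:99484-100086, + strand), had 8449, 8301 and 6874 in exit libraries, against 551, 618 and 564 in quiescent libraries (log2 change 3.76 ± 0.32, adjusted p = 1.48e-05). SYO1, which carries Rpl5 and Rpl11 together, had 1254, 1407 and 1475 in exit libraries, against 195, 217 and 211 in quiescent libraries (log2 change 2.72 ± 0.25, adjusted p = 2.07e-05). TSR2, the escort of Rps26, had 1260.2, 1522 and 1719.9 in exit libraries, against 181, 309 and 262 in quiescent libraries (log2 change 2.60 ± 0.38, adjusted p = 2.62e-04). The changes of SQT1, RRB1, BCP1, ACL4 and TSR4 were 2.19, 1.49, 1.33, 0.93 and 0.89, and TSR4 lost its call in at least 1 fit with a library left out (highest adjusted p = 0.114). Of 89 ribosomal protein genes with an intron, 6 were called higher and none lower, a share of 6.74% against 20.6% for all genes.

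Among 17 proteins of small nucleolar RNPs and their assembly, 10 were called higher and 1 lower (median 1.23). NSR1, a nucleolar RNA-binding protein, had 9854, 9664 and 11212 in exit libraries, against 1283, 968 and 939.8 in quiescent libraries (log2 change 3.28 ± 0.24, adjusted p = 8.42e-06). NAF1, needed to assemble H/ACA particles, had 978, 870.5 and 1085 in exit libraries, against 167, 117 and 143 in quiescent libraries (log2 change 2.78 ± 0.27, adjusted p = 2.40e-05). SNU13 and NOP1 had changes of 2.53 and 1.94. For the protein list, 0 to 1 were called lower with 1 library left out, moving by over 1.5 times without exit replicate 1. Of the 72 genes for the guide RNAs of these particles, the snoRNAs, 5 were called higher and 19 lower (median -0.24). The 19 are 26.4% of the 72, near the 23.7% called lower among all genes, and a difference from the protein genes was not tested. The snoRNAs have as a rule no poly(A) tail, as is true of the 7 other nuclear RNAs described further on, so poly(A) libraries measure them poorly.

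The subunits and factors of the 3 nuclear RNA polymerases were counted apart, and differences between the 3 lists were not tested. For RNA polymerase I, which makes the large ribosomal RNAs, 11 of 16 genes were called higher and 2 lower (median 1.05). RPA12 had 757, 559.9 and 583 in exit libraries, against 139, 87.5 and 71.5 in quiescent libraries (log2 change 2.70 ± 0.57, adjusted p = 0.00251). RPA49, RPA43 and RPA135 had changes of 2.33, 1.91 and 1.78. For RNA polymerase III, which makes transfer RNAs, 7 of 19 were called higher (36.8%) and 1 lower (5.26%), with a median of 0.41. The shares of all genes were 20.6% and 23.7%. RPC17, a subunit that contacts the initiation factor, had 537, 549 and 652 in exit libraries, against 83.7, 133 and 148 in quiescent libraries (log2 change 2.28 ± 0.37, adjusted p = 4.89e-04). RPC31, RPC82 and RPC53 had changes of 1.80, 1.60 and 1.49. For RNA polymerase II and its general factors, 3 of 27 were called higher and 5 lower (median 0.08), less than the share of all genes in both directions. RPB9, a small subunit, had 556, 639 and 707 in exit libraries, against 209, 299 and 271 in quiescent libraries (log2 change 1.29 ± 0.32, adjusted p = 0.00592), while TFG1, the largest TFIIF subunit, had 2341, 2475 and 2333 in exit libraries, against 4651, 4206 and 4472 in quiescent libraries (log2 change -0.90 ± 0.19, adjusted p = 0.00220). For the polymerase I list, 0 to 1 were called lower with 1 library left out, moving by over 1.5 times without any of the 6. Total-count scaling gave 0 lower. For the polymerase III list, 0 to 1 were called lower with 1 library left out, moving by over 1.5 times without exit replicate 1, 2 or 3 or quiescent replicate 2 or 3. Total-count scaling gave 0 lower, and the replicate block gave 2 lower. For the polymerase II list, 2 to 4 were called lower with 1 library left out, moving by over 1.5 times without exit replicate 1 or quiescent replicate 3. Total-count scaling gave 7 higher and 1 lower, and the replicate block gave 7 higher.

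About as many genes for finishing transfer RNA and trimming nuclear RNA were called higher as were not called. Of 42 genes for transfer RNA modification and processing, 22 were called higher and 1 lower (median 0.79). TRM11, a transfer RNA methyltransferase subunit, had 1891, 2376 and 2548 in exit libraries, against 286, 416 and 412 in quiescent libraries (log2 change 2.62 ± 0.29, adjusted p = 5.02e-05). PUS1, DUS1 and TRM7, which make pseudouridine, dihydrouridine and ribose-methylated bases, had changes of 2.01, 1.96 and 1.80. Of 18 genes of the nuclear exosome and its TRAMP cofactor, 10 were called higher and none lower (median 0.82). RRP45, an exosome ring subunit, had 1436, 1816 and 1807 in exit libraries, against 404, 471 and 473 in quiescent libraries (log2 change 1.90 ± 0.17, adjusted p = 1.79e-05). TRF5, a TRAMP poly(A) polymerase, had 919, 471 and 488 in exit libraries, against 237, 127 and 149.8 in quiescent libraries (log2 change 1.84 ± 0.41, adjusted p = 0.00311), with exit replicate 1 far above the other 2 exit libraries. RRP43 and MTR3 had changes of 1.84 and 1.68. For the transfer RNA list, 0 to 1 were called lower with 1 library left out, moving by over 1.5 times without quiescent replicate 2 or 3. Total-count scaling gave 0 lower.

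Of 50 splicing factor genes, 17 were called higher (34%) and 7 lower (14%), against 20.6% and 23.7% of all genes (median 0.29). PRP43, a helicase that also serves ribosome assembly, had 2603, 967 and 1319 in exit libraries, against 481, 357 and 288 in quiescent libraries (log2 change 2.02 ± 0.38, adjusted p = 0.00119), with exit replicate 1 above the others. PRP39, a protein of the U1 particle, had 641, 659 and 785 in exit libraries, against 195, 241 and 249 in quiescent libraries (log2 change 1.61 ± 0.20, adjusted p = 9.56e-05). ISY1 and SMD2 had changes of 1.21 and 1.18. For the splicing list, 11 to 13 were called higher with 1 library left out, moving by over 1.5 times without quiescent replicate 3, and 3 to 5 were called lower with 1 library left out, moving by over 1.5 times without exit replicate 2 or 3 or quiescent replicate 1, 2 or 3. Total-count scaling gave 1 lower. Messenger RNA decay genes were near or under the share of all genes: of 30, 3 were called higher and 3 lower. CAF130 and NOT3, of the Ccr4-Not deadenylase, had changes of 0.94 and 0.91. XRN1, the cytoplasmic exonuclease, had 1440.4, 1792 and 1848 in exit libraries, against 2796, 2748 and 2492 in quiescent libraries (log2 change -0.67 ± 0.18, adjusted p = 0.0109), and it was not called with total-count scaling (log2 change -0.41, adjusted p = 0.0730). For the decay list, 1 to 2 were called lower with 1 library left out, moving by over 1.5 times without exit replicate 1, 2 or 3 or quiescent replicate 3. Total-count scaling gave 11 higher and 0 lower, and the replicate block gave 8 higher.

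Karyopherins and the Ran system carry cargo between nucleus and cytoplasm. Of 20 of their genes, 10 were called higher, 2 lower and 8 neither (median 0.88). YRB1, the Ran-binding protein that releases export cargo (YDR002W, chrIV:453045-453650, + strand), had 9991, 10013 and 11039 in exit libraries, against 1659.7, 2171 and 1849 in quiescent libraries (log2 change 2.46 ± 0.32, adjusted p = 1.19e-04). KAP122 had 754, 987 and 1166 in exit libraries, against 153, 278 and 306 in quiescent libraries (log2 change 2.01 ± 0.34, adjusted p = 6.23e-04). GSP1, which encodes Ran, and MTR10, an importin, had changes of 1.62 and 1.34. Of 29 nuclear pore genes, 5 were called higher (17.2%) and 7 lower (24.1%), with a median of 0.11, near the 20.6% and 23.7% of all genes. Among them, the scaffold genes NUP85, NIC96 and NUP133 had changes of 1.38, 1.31 and 1.16, while NSP1, a channel protein, had 1365, 1103 and 1219 in exit libraries, against 3515, 3623 and 3071 in quiescent libraries (log2 change -1.47 ± 0.22, adjusted p = 2.89e-04). The difference between carriers and pore was not tested. For the karyopherin list, 1 to 2 were called lower with 1 library left out, moving by over 1.5 times without exit replicate 1, 2 or 3 or quiescent replicate 1 or 2. Total-count scaling gave 1 lower. For the pore list, total-count scaling gave 10 higher and 4 lower.

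Pyrimidines and GTP are building blocks of RNA. Of 17 genes for pyrimidine and GTP synthesis, 11 were called higher and 1 lower (median 0.72). URA7, a CTP synthase (YBL039C, chrII:143989-145728, - strand), had 2376, 3907 and 4274 in exit libraries, against 481, 599 and 582 in quiescent libraries (log2 change 2.63 ± 0.30, adjusted p = 6.20e-05). The 1 gene called lower was its paralog URA8, with 1559.9, 1167 and 1119.6 in exit libraries, against 5000.1, 2898 and 3885 in quiescent libraries (log2 change -1.60 ± 0.28, adjusted p = 7.41e-04), so the pair of CTP synthase genes moved in opposite directions, a difference that was not tested. URA2, the first and regulated step of the pathway, had 4745, 5869.7 and 6232 in exit libraries, against 1423, 1525 and 1449 in quiescent libraries (log2 change 1.93 ± 0.18, adjusted p = 2.07e-05), and URA1 had a change of 1.84. Here 6 to 10 were called higher with 1 library left out, moving by over 1.5 times without exit replicate 3 or quiescent replicate 2 or 3. For deoxynucleotide supply, 4 of 10 genes were called higher (40%) and 3 lower (30%), against 20.6% and 23.7% of all genes. The small subunit gene RNR4 had 4066, 3343 and 3395 in exit libraries, against 1736, 1671 and 1600.3 in quiescent libraries (log2 change 1.10 ± 0.25, adjusted p = 0.00406). RNR3, the damage-inducible large subunit, had 330.0, 354 and 372 in exit libraries, against 899.6, 739 and 827 in quiescent libraries (log2 change -1.22 ± 0.24, adjusted p = 0.00154). The inhibitors HUG1 and DIF1 had changes of 1.72 and 1.52, and the repressor of these genes, RFX1, had -1.04. RNR2 had 6174, 1640.0 and 1969 in exit libraries, against 3271, 1677 and 1868 in quiescent libraries and was not called.

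Of 16 genes of one-carbon metabolism and the S-adenosylmethionine cycle, 4 were called higher (25%) and 6 lower (37.5%), with a median of -0.40. The shares of all genes were 20.6% and 23.7%. The S-adenosylmethionine synthetases SAM1 and SAM2 rose: SAM1 had 3432, 1861 and 2148 in exit libraries, against 663, 273 and 259 in quiescent libraries (log2 change 2.73 ± 0.40, adjusted p = 2.65e-04), and SAM2 had a change of 1.73. Among the genes called lower, GCV3, of mitochondrial glycine cleavage, had 1876, 1954 and 1641 in exit libraries, against 12776, 5943 and 6454 in quiescent libraries (log2 change -2.12 ± 0.38, adjusted p = 9.81e-04), and GCV1, of the same complex, had a change of -2.02. For the one-carbon list, 3 to 5 were called lower with 1 library left out, moving by over 1.5 times without exit replicate 2 or 3 or quiescent replicate 1. Total-count scaling gave 3 lower.

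Of 26 genes under nitrogen catabolite repression, which poor nitrogen sources turn on, 3 were called higher (11.5%) and 10 lower (38.5%). The shares of all genes were 20.6% and 23.7%. The median of the list was -0.25, and -0.0011 with total-count scaling. BAT2, a transaminase of branched-chain amino acids, had 2611, 2989 and 2647 in exit libraries, against 15969.8, 9615 and 13362 in quiescent libraries (log2 change -2.21 ± 0.23, adjusted p = 3.74e-05). PUT4, the proline permease, had 1119, 1634 and 1640.0 in exit libraries, against 9379.6, 4420.5 and 5146 in quiescent libraries (log2 change -2.05 ± 0.31, adjusted p = 2.89e-04). GLN1, glutamine synthetase (YPR035W, chrXVI:642208-643320, + strand), went up with 8387, 6412 and 7317 in exit libraries, against 2183, 1604 and 1498 in quiescent libraries (log2 change 2.08 ± 0.46, adjusted p = 0.00307). The ammonium permease MEP3 had a change of 1.47. GATA was in 13 of the 26 promoters, against 14.5% of all promoters. For the nitrogen list, total-count scaling gave 6 higher, and the replicate block gave 5 higher. Among 19 amino acid permeases 5 were called higher (26.3%) and 4 lower (21.1%), near the 20.6% and 23.7% of all genes. GNP1, a glutamine permease, had 3047, 2818 and 3589 in exit libraries, against 851, 551 and 574 in quiescent libraries (log2 change 2.28 ± 0.27, adjusted p = 7.37e-05). TAT1, for tyrosine and branched-chain amino acids, had 2479, 2972 and 3223 in exit libraries, against 760.1, 585 and 645 in quiescent libraries (log2 change 2.12 ± 0.20, adjusted p = 2.32e-05) and overlaps an annotated non-coding RNA. ALP1 and AGP3 had changes of -1.56 and -1.34.

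ZRT1, the high-affinity zinc transporter (YGL255W, chrVII:20978-22108, + strand), had 4599, 4689 and 4562 in exit libraries, against 537, 185 and 184 in quiescent libraries (log2 change 4.13 ± 0.77, adjusted p = 0.00118). Quiescent replicate 1 lay above the other quiescent libraries. Of 15 zinc genes only ZRT1 was called higher (6.67%) and 2 were called lower (13.3%), against 20.6% and 23.7% of all genes. ZRE was in 4 of those 15 promoters. For the zinc list, 1 to 2 were called higher with 1 library left out, moving by over 1.5 times without quiescent replicate 1, and 0 to 2 were called lower with 1 library left out, moving by over 1.5 times without exit replicate 1, 2 or 3 or quiescent replicate 1 or 3. Total-count scaling gave 4 higher and 0 lower, and the replicate block gave 2 higher. Of 29 iron and copper genes 4 were called higher (13.8%) and 8 lower (27.6%), with a median of -0.48. ARN1, a siderophore transporter, had 885, 924 and 902 in exit libraries, against 3089, 1645 and 1961 in quiescent libraries (log2 change -1.25 ± 0.27, adjusted p = 0.00279). FRE5 and CCC2 had changes of -1.12 and 0.89. For the iron and copper list, 2 to 4 were called higher with 1 library left out, moving by over 1.5 times without exit replicate 1, and 3 to 6 were called lower with 1 library left out, moving by over 1.5 times without exit replicate 1 or quiescent replicate 1 or 3. Total-count scaling gave 5 lower. Of 27 phosphate genes 4 were called higher (14.8%) and 5 lower (18.5%), both under the share of all genes (median 0.06). PHM6 had 307, 255 and 281 in exit libraries, against 20.9, 37.9 and 37.5 in quiescent libraries (log2 change 3.14 ± 0.33, adjusted p = 3.83e-05). Its 20.9 in quiescent replicate 1 is only 3 reads. SPL2, an inhibitor of low-affinity phosphate uptake, had 216, 357 and 258 in exit libraries, against 851, 1126 and 1313 in quiescent libraries (log2 change -1.99 ± 0.31, adjusted p = 3.45e-04). The sodium-phosphate transporter PHO89 and the vacuolar phosphatase PHO8 had changes of -1.70 and -1.67. For the phosphate list, 2 to 4 were called higher with 1 library left out, moving by over 1.5 times without quiescent replicate 3, and 3 to 4 were called lower with 1 library left out, moving by over 1.5 times without exit replicate 2 or 3 or quiescent replicate 1.

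Of 17 exporters of drugs and polyamines, 7 were called lower (41.2%) and 2 higher (11.8%), with a median of -0.41. The shares of all genes were 23.7% lower and 20.6% higher. AQR1, which excretes amino acids and drugs (YNL065W, chrXIV:503724-505484, + strand), had 871, 1925 and 2118 in exit libraries, against 55.8, 157 and 139.6 in quiescent libraries (log2 change 3.82 ± 0.58, adjusted p = 3.06e-04), with exit replicate 1 below the other 2 exit libraries. PDR10, an ABC transporter, had 1869, 3237 and 3135 in exit libraries, against 9826, 10264 and 10969 in quiescent libraries (log2 change -1.95 ± 0.52, adjusted p = 0.00868). The polyamine exporter TPO4 had 556, 961 and 932 in exit libraries, against 2232, 3108 and 2503 in quiescent libraries (log2 change -1.71 ± 0.24, adjusted p = 2.19e-04). TPO3 had a change of -1.57, and it has a near-identical copy in the genome, so its reads may be shared.

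The Ras and protein kinase A pathway relays the glucose signal. Of its 20 genes measured, 3 were called higher (15%) and 11 lower (55%), against 20.6% and 23.7% of all genes, with a median of -0.83. The phosphodiesterase PDE2, which breaks down cyclic AMP (YOR360C, chrXV:1013241-1014821, - strand), had 1612, 2224 and 2859 in exit libraries, against 321, 397 and 381 in quiescent libraries (log2 change 2.57 ± 0.34, adjusted p = 1.48e-04). BCY1, the inhibitory subunit of the kinase (YIL033C, chrIX:290419-291669, - strand), had 798, 707 and 721 in exit libraries, against 3612, 2088 and 2298 in quiescent libraries (log2 change -1.80 ± 0.26, adjusted p = 2.19e-04). The catalytic subunit gene TPK2 had 830.0, 711 and 692 in exit libraries, against 4017, 1898 and 1879.5 in quiescent libraries (log2 change -1.71 ± 0.34, adjusted p = 0.00172). Another catalytic subunit gene, TPK3, had 779, 907 and 937 in exit libraries, against 377, 503 and 529 in quiescent libraries (log2 change 0.91 ± 0.21, adjusted p = 0.00417), above quiescent cells in each exit library. Of the 2 Ras genes, RAS1 had 966, 1112 and 1034 in exit libraries, against 363, 191 and 201 in quiescent libraries (log2 change 2.10 ± 0.30, adjusted p = 2.22e-04), and RAS2 had 767, 855 and 683 in exit libraries, against 1688, 1509 and 1566 in quiescent libraries (log2 change -1.05 ± 0.24, adjusted p = 0.00415). The differences between these paralogs were not tested. The adenylate cyclase CYR1, its partner SRV2 and the G protein GPA2 had changes of -0.85, -1.16 and -1.61. IGO1 and IGO2, which protect quiescence messages, had changes of -1.17 and -1.93, and YAK1, a kinase opposed to this pathway that overlaps another annotated gene, had -1.51. RIM15, the kinase above IGO1 and IGO2, had 727, 731 and 754 in exit libraries, against 1004, 681 and 650.3 in quiescent libraries and was not called. Total-count scaling gave 5 higher.

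TOR pathway genes and the regulators of ribosome genes were for the most part not called, with 3 of 35 higher (8.57%) and 7 lower (20%). Both shares were under the 20.6% and 23.7% of all genes. The median was -0.06, and 0.20 with total-count scaling. LST8, a subunit of both TOR complexes (YNL006W, chrXIV:620067-620978, + strand), had 6221, 12473 and 11067 in exit libraries, against 2434, 2092 and 2261 in quiescent libraries (log2 change 2.07 ± 0.47, adjusted p = 0.00381). Its start faces that of SIS1 across 501 bases, and both genes rose and were highest at 30 min of the 4 time points. IFH1, the coactivator of ribosomal protein genes, had 3465, 3196 and 3182 in exit libraries, against 921, 1747 and 1384 in quiescent libraries (log2 change 1.33 ± 0.27, adjusted p = 0.00180). SFP1, an activator of ribosome genes, had 897, 962 and 979.9 in exit libraries, against 446, 528 and 528 in quiescent libraries (log2 change 0.92 ± 0.16, adjusted p = 8.48e-04). DOT6, the PAC-binding repressor, had 1141, 1257 and 1282 in exit libraries, against 2713, 2465 and 2998 in quiescent libraries (log2 change -1.15 ± 0.22, adjusted p = 0.00148). Its paralog TOD6 had 1429, 493 and 642 in exit libraries, against 593, 405 and 431 in quiescent libraries and was not called, except with the replicate block (adjusted p = 0.0477). MTC5, of the SEACAT complex above TORC1, had 934, 1286 and 1275 in exit libraries, against 3417, 3239.6 and 3708 in quiescent libraries (log2 change -1.58 ± 0.19, adjusted p = 7.05e-05). TOR2, TCO89 and BIT2 had changes of -0.89, -0.69 and -0.79, and BIT2 was not called with total-count scaling (log2 change -0.54, adjusted p = 0.0520). Total-count scaling gave 12 higher and 4 lower, and the replicate block gave 7 higher.

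The regulators of carbon source use were seldom called, with 1 of 32 higher (3.1%) and 3 lower (9.4%), against 20.6% and 23.7% of all genes. Their median was -0.10, and 0.15 with total-count scaling. SIP2, a subunit of the Snf1 kinase, had 1233, 774 and 718 in exit libraries, against 7239, 3226 and 4217 in quiescent libraries (log2 change -2.39 ± 0.33, adjusted p = 1.83e-04). The glucose repressor MIG2, the neighbour of SIP2, had 471, 387 and 396 in exit libraries, against 1262, 961 and 1016 in quiescent libraries (log2 change -1.36 ± 0.34, adjusted p = 0.00633). RGT1, the repressor of glucose transporter genes, had 567, 686 and 680.1 in exit libraries, against 2071, 1206 and 1468 in quiescent libraries (log2 change -1.26 ± 0.22, adjusted p = 7.56e-04). SNF1, the kinase gene itself, had 465, 759 and 825 in exit libraries, against 669, 617 and 655 in quiescent libraries, and its log2 change was 0.03 (adjusted p = 0.935). The activator CAT8 had 577, 795 and 696 in exit libraries, against 1437, 1251 and 1294 in quiescent libraries, which missed the threshold (log2 change -0.95 ± 0.37, adjusted p = 0.0522) except with the replicate block (adjusted p = 0.0449). GLC7, a phosphatase that acts on Snf1, had 3197, 3295 and 3661 in exit libraries, against 1276, 2008 and 2009 in quiescent libraries (log2 change 0.97 ± 0.30, adjusted p = 0.0209) and lost its call in at least 1 fit with a library left out (highest adjusted p = 0.0840). Messages of the stress factors MSN2 and MSN4 had changes of 0.37 and 0.56 and were not called, except MSN2 with the replicate block (adjusted p = 0.0448). Here 0 to 2 were called higher with 1 library left out, moving by over 1.5 times without exit replicate 1 or 3. Total-count scaling gave 8 higher, and the replicate block gave 3 higher and 7 lower.

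**Figure D4:**
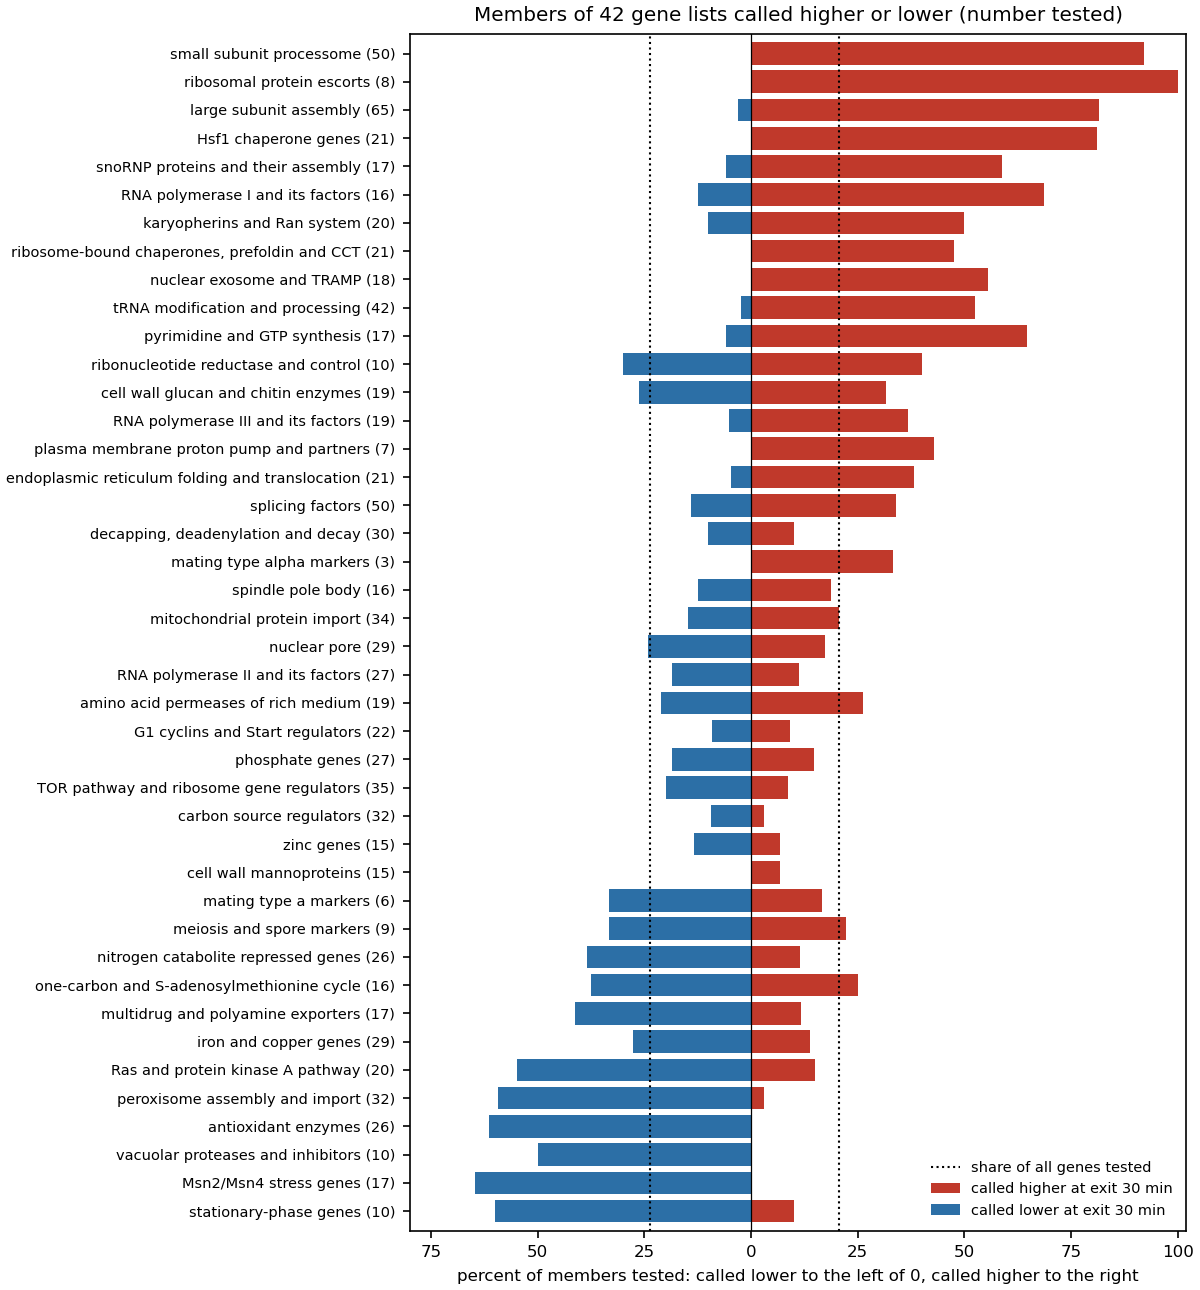
Percent of the tested members of 42 gene lists that were called lower (blue, left of 0) or higher (red, right of 0) at 30 min against quiescent cells, sorted by median log2 change, with the number tested in brackets. Dotted lines mark the shares of all genes, 20.6% higher and 23.7% lower. Ribosome assembly and Hsf1 chaperone lists lie far beyond the first line, and stress, antioxidant and peroxisome lists beyond the second.

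Of 17 Msn2/Msn4 stress genes none was called higher, 11 were called lower and 6 neither (median -1.07). TFS1, an inhibitor of the vacuolar carboxypeptidase (YLR178C, chrXII:513162-513821, - strand), had 814, 797 and 800.3 in exit libraries, against 5147, 4254 and 4947 in quiescent libraries (log2 change -2.57 ± 0.47, adjusted p = 0.00103). CTT1, the cytosolic catalase, had 459, 405 and 389 in exit libraries, against 3145, 1503 and 1747 in quiescent libraries (log2 change -2.28 ± 0.42, adjusted p = 0.00110). MSC1 and DCS2 had changes of -2.28 and -2.08. The 6 members not called also lay below 0, and the mildest change was -0.17. STRE was in 9 of the 17 promoters (52.9%), against 21.9% of all promoters. The list held 0.740% of the summed values at 30 min and 1.15% in quiescent cells (exact permutation p = 0.1). The share of its member HSP12 overlapped between groups, with 0.348, 0.362 and 0.367% in exit libraries, against 0.331, 0.312 and 0.377% in quiescent libraries.

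Stationary-phase genes fell in 6 of 10 cases and rose in 1 (median -1.25). SPG5 (YMR191W, chrXIII:645656-646777, + strand) had 4291, 6249 and 5321 in exit libraries, against 25405, 19411 and 21262 in quiescent libraries (log2 change -2.07 ± 0.24, adjusted p = 6.52e-05). SIP18, which protects dry cells, had 125, 144 and 144 in exit libraries, against 732, 538 and 621 in quiescent libraries (log2 change -2.18 ± 0.41, adjusted p = 0.00119), and MOH1 had a change of -1.06. SPG4 had 5956, 12070.2 and 10962 in exit libraries, against 43690.3, 59951 and 68728 in quiescent libraries and missed the threshold (log2 change -2.61 ± 1.06, adjusted p = 0.0623), except with the replicate block (adjusted p = 0.0136). The vitamin B6 genes SNZ1 and SNO1, which form a pair, had changes of -0.97 and 0.60 in opposite directions, and both lost their call in at least 1 fit with a library left out (highest adjusted p = 0.0727 for SNZ1 and 0.155 for SNO1). SNZ1 was also not called with total-count scaling (log2 change -0.72, adjusted p = 0.0646). SSA3, a stationary-phase Hsp70, had 10551, 11321 and 9869 in exit libraries, against 19519, 7912 and 8667 in quiescent libraries, with quiescent replicate 1 far above the others, and a log2 change of -0.06. For the stationary-phase list, 0 to 1 were called higher with 1 library left out, moving by over 1.5 times without exit replicate 2 or 3 or quiescent replicate 1, 2 or 3.

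**Figure D5:**
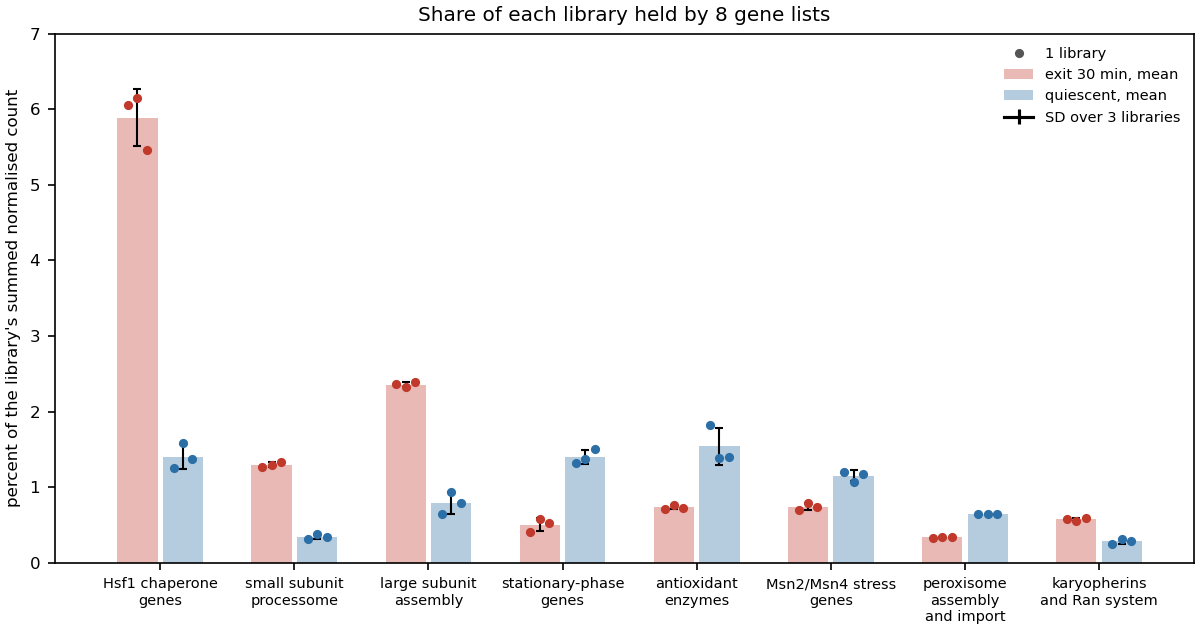
Percent of each library's summed normalised count held by 8 gene lists, exit 30 min left of quiescent, with points for single libraries, bars for the mean and lines for the SD over 3 libraries. Hsf1 chaperone genes are at 5.46 to 6.15% at 30 min and 1.26 to 1.58% in quiescent cells. The groups do not overlap in any of the 8 lists, which were picked for drawing, nor in most of the 42 lists.

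Antioxidant enzymes fell in 16 of 26 cases and rose in none (median -0.93). CTA1, the peroxisomal catalase (YDR256C, chrIV:968133-969680, - strand), had 2959.8, 4519 and 4121 in exit libraries, against 30301, 21684 and 24808 in quiescent libraries (log2 change -2.74 ± 0.25, adjusted p = 1.79e-05). GPX2, a glutathione peroxidase, had 459, 1272 and 1171 in exit libraries, against 5746, 6466 and 6728 in quiescent libraries (log2 change -2.84 ± 0.63, adjusted p = 0.00321), with exit replicate 1 below the other 2 exit libraries. CCP1, the cytochrome c peroxidase of mitochondria, had 1990.1, 2386 and 2238 in exit libraries, against 16269.7, 6934 and 7819 in quiescent libraries (log2 change -2.12 ± 0.30, adjusted p = 2.03e-04). STRE was in 13 of the 26 promoters. Total-count scaling gave 1 higher, and the replicate block gave 1 higher. Vacuolar proteases and their inhibitors fell in 5 of 10 cases. PRC1, carboxypeptidase Y, had 4105, 5160.1 and 4642 in exit libraries, against 14024, 11646 and 15242 in quiescent libraries (log2 change -1.55 ± 0.36, adjusted p = 0.00444), and the related YBR139W had a change of -1.66. The main protease genes PEP4 and PRB1 had changes of -0.72 and -0.60 and were not called, except PEP4 with the replicate block (adjusted p = 0.0199). STRE was in 9 of these 10 promoters. The replicate block gave 8 lower.

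Peroxisomes are where yeast breaks down fatty acids. Of 32 genes for their assembly and import, 19 were called lower, 1 higher and 12 neither (median -0.91). PEX18, a co-receptor for import of the thiolase Pot1, had 194, 201 and 183 in exit libraries, against 1339, 975 and 965 in quiescent libraries (log2 change -2.48 ± 0.22, adjusted p = 1.79e-05). PXA1, of the fatty acid transporter, had 905, 1528 and 1443 in exit libraries, against 5426, 6239 and 6430.1 in quiescent libraries (log2 change -2.26 ± 0.38, adjusted p = 6.24e-04). PEX3, which starts the membrane, and PEX6, which recycles receptors, had changes of -1.69 and -1.68. All 19 genes called lower were at their highest in quiescent cells of the 4 time points. For the assembly and import list, the replicate block gave 2 higher. Of the cargo, POX1, acyl-CoA oxidase (YGL205W, chrVII:108158-110404, + strand), had 578, 907 and 737 in exit libraries, against 7483, 4406 and 4563 in quiescent libraries, and POT1 had 1228, 2425 and 1994 in exit libraries, against 13376, 12412 and 13191 in quiescent libraries. ECI1 and SPS19, auxiliary enzymes of unsaturated fatty acids, had changes of -2.64 and -2.64.

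The other largest changes did not fall in these groups. ANS1, a predicted surface protein gene (YHR126C, chrVIII:359702-360181, - strand), had 1324, 912 and 1129.6 in exit libraries, against 41.8, 27.7 and 34.0 in quiescent libraries (log2 change 4.98 ± 0.40, adjusted p = 1.10e-05), and its later means were 40.0 ± 16.2 after 240 min and 6.04 ± 3.16 in log phase (SD, n = 3 each). JJJ3, a J-protein needed for the diphthamide of elongation factor eEF2, had 507, 759.7 and 815 in exit libraries, against 34.9, 51.0 and 78.3 in quiescent libraries (log2 change 3.69 ± 0.46, adjusted p = 8.62e-05). FEX2, a fluoride exporter gene with a near-identical copy, had 122, 106 and 122 in exit libraries, against 0, 16.0 and 15.3 in quiescent libraries. BSC1 had 139, 116 and 147 in exit libraries, against 0, 20.4 and 18.7 in quiescent libraries. In FEX2 and BSC1 the 0 of quiescent replicate 1 allows up to 20.9 units, the value of 3 reads, so their log2 changes of 4.17 and 4.16 depend on the pseudocount. YFR032C-B, a small gene, had a change of 3.70. On the falling side, RGI2, induced in respiratory growth (YIL057C, chrIX:247902-248396, - strand), had 1606, 2263 and 1849.5 in exit libraries, against 16528, 13365 and 14680.2 in quiescent libraries (log2 change -2.97 ± 0.68, adjusted p = 0.00385). ADY2 (YCR010C, chrIII:132273-133124, - strand) had 9744, 17966 and 15374 in exit libraries, against 89047, 76618 and 92923 in quiescent libraries (log2 change -2.63 ± 0.41, adjusted p = 3.87e-04). YAT1 had 9608, 15035 and 13431 in exit libraries, against 99989, 62757 and 73290.4 in quiescent libraries (log2 change -2.63 ± 0.44, adjusted p = 6.36e-04). YAT2, another carnitine acetyltransferase gene, had a change of -2.12. GLK1, glucokinase, had 9905, 10060.5 and 10257 in exit libraries, against 75665, 49338 and 61598 in quiescent libraries (log2 change -2.60 ± 0.49, adjusted p = 0.00126) and overlaps another annotated gene. JEN1, the lactate and pyruvate permease, had a change of -2.36.

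Few genes of the cell cycle list were called at 30 min. Of 22 G1 cyclin and Start genes 2 were called higher (9.09%) and 2 lower (9.09%), against 20.6% and 23.7% of all genes (median 0.06). The G1 cyclin CLN2 had 149.8, 179 and 186 in exit libraries, against 404, 299 and 347 in quiescent libraries (log2 change -1.02 ± 0.23, adjusted p = 0.00371), and averaged 617 ± 50.7 after 240 min and 1003 ± 333 in log phase (SD, n = 3 each). SWI6, a subunit of the Start factors SBF and MBF, had 589, 478 and 480.0 in exit libraries, against 216, 346 and 240.0 in quiescent libraries (log2 change 0.97 ± 0.25, adjusted p = 0.00834). For the cell cycle list, 1 to 2 were called higher with 1 library left out, moving by over 1.5 times without exit replicate 1 or 3 or quiescent replicate 1, and 1 were called lower with 1 library left out, moving by over 1.5 times without any of the 6. Total-count scaling gave 6 higher and 1 lower. Among 16 spindle pole body genes 3 were called higher (18.8%) and 2 lower (12.5%), both under the 20.6% and 23.7% of all genes. CDC31, the yeast centrin (YOR257W, chrXV:811008-811493, + strand), had 1577, 1564 and 1482 in exit libraries, against 9331, 12298 and 10879 in quiescent libraries (log2 change -2.80 ± 0.18, adjusted p = 6.10e-06). NUD1, the scaffold of mitotic exit signalling, had 966, 1655 and 1489 in exit libraries, against 6995, 6126 and 7252 in quiescent libraries (log2 change -2.34 ± 0.24, adjusted p = 2.96e-05). Both lay far below the rest of their list, where KAR1 and SPC97 had changes of 1.43 and 1.37. Total-count scaling gave 6 higher, and the replicate block gave 5 higher.

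Of 19 genes for the glucan and chitin enzymes of the cell wall, 6 were called higher (31.6%) and 5 lower (26.3%), with a median of 0.54. The shares of all genes were 20.6% and 23.7%. GAS1, which elongates glucan, had 4926, 4033 and 4210.1 in exit libraries, against 2204, 951 and 957 in quiescent libraries (log2 change 1.79 ± 0.33, adjusted p = 0.00102), and EXG1, a glucanase, had a change of 1.51. CTS1, the chitinase that parts mother and daughter, had 826, 559.9 and 609.7 in exit libraries, against 4142, 2045 and 2540.1 in quiescent libraries (log2 change -2.08 ± 0.28, adjusted p = 1.63e-04). GSC2, the glucan synthase of stress and spores, had 2351, 3883 and 3919 in exit libraries, against 10293, 9411 and 9530.3 in quiescent libraries (log2 change -1.56 ± 0.28, adjusted p = 9.46e-04). Total-count scaling gave 10 higher, and the replicate block gave 10 higher. Of 15 mannoprotein genes CCW14 alone was called higher, with 1592, 897 and 992 in exit libraries, against 432, 331 and 271 in quiescent libraries (log2 change 1.73 ± 0.38, adjusted p = 0.00291). Here 1 to 2 were called higher with 1 library left out, moving by over 1.5 times without exit replicate 1, and 0 to 2 were called lower with 1 library left out, moving by over 1.5 times without quiescent replicate 1. The replicate block gave 1 lower. PMA1, the proton pump that powers nutrient uptake, had 11808, 19184 and 21027 in exit libraries, against 7071, 4558 and 4765 in quiescent libraries (log2 change 1.65 ± 0.40, adjusted p = 0.00512), and its small partners PMP1 and PMP2 had changes of 1.08 and 0.87, the call of PMP2 being lost in at least 1 fit with a library left out (highest adjusted p = 0.0974). Of 34 mitochondrial import genes 7 were called higher (20.6%) and 5 lower (14.7%), against 20.6% and 23.7% of all genes (median 0.11). SSC1, the matrix Hsp70, had 9509, 8856 and 9289 in exit libraries, against 4763, 3403 and 3516 in quiescent libraries (log2 change 1.26 ± 0.30, adjusted p = 0.00511), and PAM18, PAM17 and TOM5 had changes of 1.29, -1.19 and 1.36. Total-count scaling gave 3 lower, and the replicate block gave 11 higher and 10 lower.

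Markers of other cell types were looked at as a check of the culture. Among 6 markers of mating type a, 1 was called higher (16.7%) and 2 lower (33.3%). The pheromone protease BAR1 had 258, 229 and 197 in exit libraries, against 760.1, 493 and 524 in quiescent libraries (log2 change -1.35 ± 0.31, adjusted p = 0.00408). Of the 3 alpha markers MF(ALPHA)1, the alpha pheromone gene, was called higher, and STE3 had a change of -0.10. Among 9 meiosis and spore markers 2 were called higher (22.2%) and 3 lower (33.3%), against 20.6% and 23.7% of all genes. SSP1 had 149, 150.4 and 164 in exit libraries, against 6.97, 52.5 and 42.6 in quiescent libraries (log2 change 2.55 ± 0.54, adjusted p = 0.00254). The 6.97 of quiescent replicate 1 is 1 read, under the floor of 3 reads, so the size of this change is imprecise. IME2 and DIT1, with roles in meiosis and the spore wall, had changes of -1.26 and -1.46. None of these 18 markers was at 0 in an exit library, and MF(ALPHA)1 alone was at 0 in a quiescent library, replicate 1. Their part in the other results was not tested. For the a markers, 0 were called higher with 1 library left out, moving by over 1.5 times without any of the 6, and 1 to 2 were called lower with 1 library left out, moving by over 1.5 times without exit replicate 2 or 3 or quiescent replicate 1 or 3. Total-count scaling gave 2 higher and 1 lower. For the alpha markers, 0 to 1 were called higher with 1 library left out, moving by over 1.5 times without exit replicate 1, 2 or 3 or quiescent replicate 1. For the meiosis markers, 1 to 2 were called higher with 1 library left out, moving by over 1.5 times without exit replicate 1, 2 or 3 or quiescent replicate 2 or 3.

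Some RNA classes that as a rule have no poly(A) tail were called lower at 30 min, and the snoRNAs given above were near the share of all genes. All 17 tested genes of the mitochondrial genome were called lower (median -2.30), and that genome held 0.0118 ± 0.00365% of the summed values at 30 min and 0.0499 ± 0.0152% in quiescent cells. Among them AI1 and BI4, which overlap other mitochondrial genes and have near-identical copies, had changes of -2.63 and -2.72. Likewise called lower were 7 of 7 genes for spliceosomal RNAs, RNase P RNA, RNase MRP RNA and the signal recognition particle RNA (median -2.50). Nuclear structural RNA genes together held 0.332 ± 0.0927% at 30 min and 0.705 ± 0.0278% in quiescent cells. The part of RNA capture in these values was not tested.

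Calls were also counted by position in the genome, with no test of the difference between positions. Of 64 nuclear protein-coding genes within 10 kb of a chromosome end, 1 was called higher and 18 lower (median -0.61). Between 10 and 20 kb, 11 of 105 were called higher and 36 lower, and between 20 and 30 kb, 20 of 134 were called higher and 44 lower. Farther in, 21.5% of 5459 genes were called higher and 22.9% lower (median -0.04). By coding length, 15.5 to 23.4% were called higher and 21.3 to 26.6% lower in the 5 length classes. By mean over the 12 libraries, the 5 classes had 17.6 to 22.3% called higher and 17.8 to 29.6% lower.

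Divergent pairs are neighbours that start from a shared intergenic region. Of 1448 such pairs with both genes tested, both were called higher in 93 and both lower in 117, and 69 pairs had 1 of each. For a gene called higher the partner was called higher in 31.8% of cases, against 20.2% of all genes in such pairs. For a gene called lower the partner was called lower in 34.3%, against 23.6%. The median distance between the starts was 506 bases. TRM11 and HRP1, an RNA-binding protein gene, rose across 1086 bases, with changes of 2.62 and 2.33. NSA2 and LCP5 rose across 301 bases (2.22 and 2.58), as did RRP3 and SSF1 across 297 bases (2.39 and 2.18), and all 4 serve ribosome assembly. In the other direction SPL2 and ARO9, an aromatic aminotransferase gene, fell across 608 bases (-1.99 and -2.24). RAS1 and CRC1, the mitochondrial carnitine carrier, are 965 bases apart and went opposite ways (2.10 and -2.21). SAM1 and YLR179C, 548 bases apart, also did (2.73 and -1.60). These pairs were chosen after their values had been seen.

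Of the 1211 genes called higher at 30 min, 538 had their highest mean of the 4 time points at 30 min, 435 had it at 240 min, and for 238 it was in log phase. Of the 46 processome genes called higher, 17 were highest at 30 min and 29 at 240 min. None of the 10 karyopherin and Ran genes called higher was highest at 30 min. In the order quiescence, 30 min, 240 min and log phase, ZRT1 averaged 302 ± 203, 4617 ± 65.7, 1083 ± 263 and 1177 ± 1612 normalised counts (SD, n = 3 each). PMA1 averaged 5465 ± 1395, 17339.8 ± 4878, 61549 ± 20914 and 97576 ± 32253 in the same order. Of the 1394 genes called lower, 1193 had their highest mean in quiescent cells and 460 their lowest at 30 min.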

How the data were processed

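Poly(A) RNA was sequenced from 3 libraries each of quiescent cells, exit at 30 min, exit at 240 min and log phase. The deposited signal is a normalised read count per gene, made by the authors by dividing read counts by a size factor, a unit read from the values: 100% were whole multiples of 1 read (tolerance 1e-06). The submitters' processing notes name STAR 2.5.2a, HTSeq 0.6.1, DESeq, DESeq2, bedtools and the build sacCer3, with no order. Genes with a mean of at least 10 over the 12 libraries were tested with limma 3.58.1 (R 4.3.3; trend, all 4 groups, 8 residual degrees of freedom, two-sided) on log2(value + 1), with Benjamini-Hochberg adjustment. edgeR 4.0.16 and DESeq2 1.42.0 on the recovered reads were alternatives. Depth was 1195233 to 11866340 reads, and floors of 3 reads cover counting error only.

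The labels number the replicates but do not say what the number marks. Deviations from the group means correlated at 0.527, 0.304 and 0.529 between same-numbered exit and quiescent libraries. Exit replicate 2 correlated better with quiescent replicate 3 (0.451), and exit replicate 3 correlated with quiescent replicate 2 at 0.413. Whether the numbers pair the samples was therefore not settled, and the main calls came from the model without a replicate block. The block was kept as an alternative.

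Named genes were called, reached a group mean of 50 or more, had no overlap between groups, a call in each fit with 1 of the 6 libraries left out and the same sign under total-count and TMM scaling. Of these came the 12 largest changes each way, the 5 largest each way in normalised count and up to 4 per list. Members of lists of at most 10 genes and of the 3 regulator lists could be named whatever their values. Genes of the neighbour pairs and HSP12 were chosen after their values were seen. Comparison, lists and motifs were chosen with earlier results of these data known. On simulated data for this comparison (5871 genes), 32% of 100 genes changed 2-fold and 90% of 100 changed 4-fold were recovered, with 8 unchanged genes called. The simulation changed far fewer genes than the 2605 called in the data, and its libraries were drawn independently. Its rates therefore need not hold for the data. One gene is not reported here by name.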

Additional observations from a re-analysis of the deposited data

How the results depend on the processing

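Array weights called 2224 genes higher and 2554 lower, and replicates 2 and 3 alone, an alternative chosen after seeing the data, 1933 and 2261. The replicate block called 1550 higher and 1799 lower and kept every call made without it. Beyond the list counts and the 5 genes given above, it changed no call of a gene whose counts or log2 change are described. Leaving out 1 library called 974 to 1081 higher and 1098 to 1238 lower. Pseudocounts of 0.5 and 10, filters, TMM scaling, the 6 libraries alone, edgeR (1175 higher, 1438 lower) and DESeq2 (1279 higher, 1576 lower) stayed within 1.5 times. Of 182 genes that passed the naming rule, 180 were called in all 18 settings; XRN1 and BIT2 were not. SSA3 reversed to 0.35 (adjusted p = 0.0214) with replicates 2 and 3 alone, and SIP4 to 0.25 (adjusted p = 0.0387) with array weights; the cause was not tested. With only the bases before the start searched, PAC was in 28.9% of promoters of genes called higher, and STRE in 31.2% and CSRE in 11.0% of those called lower, since the window is shorter. Of 1512 list counts compared, 259 moved by over 1.5 times. Depth limits low genes most in quiescent replicate 1.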
